A study of Rattus norvegicus with 79 samples.

Results

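The comparison described here set 24-month rats that had failed to learn a hidden platform against 24-month rats trained with a platform they could see. In a water maze a rat escapes by swimming to a platform. A hidden platform has to be found from its place among cues in the room, which depends on the hippocampus, whereas a visible platform can be approached directly. Membership followed the sample names: 10 arrays named as aged, hidden and impaired, and 8 named as aged and visible, 18 of the 79 arrays of the series. No measured value entered that choice.

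The animals were male Fisher-344 rats, killed 24 hours after the last trial by decapitation under a lethal dose of pentobarbital. The main cell layer of hippocampal field CA1 was punched from tissue slices, and its RNA went through 2 rounds of amplification before hybridization to an Affymetrix rat array. Impaired and visible rats were both of the older age (24 months) and both were trained with a platform. By their labels the groups differ in the kind of platform and in the rank of the hidden group's learning. Array quality differed too, as given below, and time or distance swum was not compared. The impaired rats are also a selected subset of those trained with the hidden platform, while the visible group was not split by performance. The other 24-month rats used for the spread were 13 hidden-platform rats called unimpaired, 8 yoked rats that swam with no platform and 5 rats that stayed in their cages. A further 16 rats of that age have names with hidden and the letter B, a letter the labels do not explain; they entered no contrast, and only their levels are given. The 3-month rats were 6 trained with a hidden platform, 4 with a visible platform, 6 yoked and 3 that stayed in their cages. The yoked and cage rats of that age served only for the spread in the age test. The young hidden group was not split by performance. Each array carries its own animal number, which is taken to be 1 rat.

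CA1 pyramidal neurons carry the output of the hippocampal circuit and are among the cells in which spatial learning changes synaptic strength. Activity in these cells switches on immediate early genes: transcription factors such as Fos and Egr1, and effectors such as Arc and Homer1 that act at the synapse. Around the pyramidal cells lie inhibitory interneurons, some of which release the neuropeptides somatostatin or neuropeptide Y. In a bulk sample of this kind, fewer cells of a type and less RNA per cell cannot be told apart.

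The tissue label was checked against marker genes. Hpca, the calcium sensor hippocalcin, had a median signal of 10817 over the 18 arrays, and Nrgn, the postsynaptic protein neurogranin, had 15627. Markers of other cells were present too: the median was 2935 for the myelin gene Mbp, 4539 for the astrocyte transporter Slc1a3, 677 for the microglial complement gene C1qb and 626 for the choroid plexus gene Ttr. Camk2a lay under the level required for testing, and Gfap had no probe set with a single gene symbol, so neither is reported.

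Some arrays stood apart. The median rank correlation of an array with the other arrays was under 0.85 for 14 of the 79, and these included impaired rats 8 and 83 and visible rats 33, 67, 68 and 97. The range was 0.223 to 0.933 among impaired arrays and 0.645 to 0.940 among visible arrays. Differences between impaired and visible rats are therefore given over all 18 arrays and, for most genes and lists, also without those 6, which leaves 8 impaired and 4 visible (the kept arrays). Among the kept arrays the spike-in controls still differed: their log2 level, averaged over 9 probe sets, ran from 10.98 to 13.33 in the impaired group (median 11.44) and from 9.63 to 11.12 in the visible group (median 10.29), and the part of this in the results was not tested beyond the fits with spike-in level as a covariate.

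**Figure D1:**
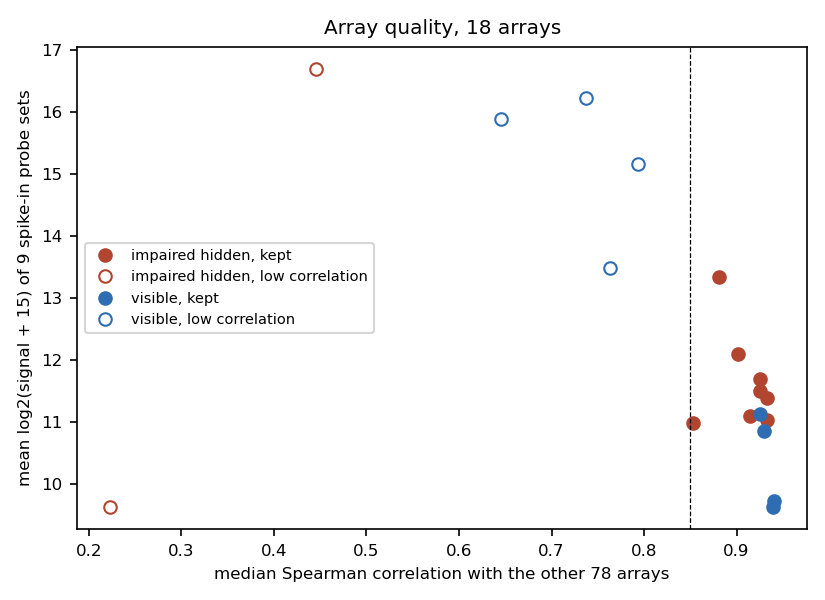
Spike-in level (mean log2(signal + 15) over 9 control probe sets) against the median Spearman correlation of each array with the other arrays, 1 point per rat, for 10 impaired hidden-platform (red) and 8 visible-platform (blue) rats. The dashed line marks 0.85; the 6 open points to its left are the low-correlation arrays, and visible rats make up 4 of them.

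Values below are signals in arbitrary units, scaled alike on every array, and differences are on the log2(signal + 15) scale, impaired hidden minus visible, with the standard error (SE) of the limma fit. Because 15 was added, a difference understates the change of a dim probe set. Adjusted p-values are Benjamini-Hochberg values over all 5244 probe sets tested, with 0.05 as the threshold. Of these, 3 probe sets passed (0.0572%), 1 higher and 2 lower in impaired rats. An unadjusted p under 0.05 was reached by 211 probe sets that lay higher (4.02%) and 295 that lay lower (5.63%); over the kept arrays these were 437 (8.33%) and 342 (6.52%).

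The lower pair were S83436_i_at of Gstk1 and X16481_r_at of Ptms. Affymetrix marked with these endings probe sets that have fewer probe pairs than usual (_i_at) or whose probes did not meet all selection rules (_r_at). The higher one, rc_AI178267_g_at, has no gene symbol in the annotation used. The regions around the annotated starts of the named pair are shown, together with that of Sst, the neuropeptide gene among the leading lower genes, because its promoter is a textbook target of the activity-driven factor CREB. The sequences are RefSeq's (GRCr8), from 250 bases before to 50 after each annotated start, 5′ to 3′ on the gene's strand. Capitals mark matches, on either strand, to the cyclic AMP response element TGACGTCA, the antioxidant response element TGACNNNGC or the GC box GGGCGG; no match overlaps another.

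Gstk1, chr4:72085364-72085663, plus strand: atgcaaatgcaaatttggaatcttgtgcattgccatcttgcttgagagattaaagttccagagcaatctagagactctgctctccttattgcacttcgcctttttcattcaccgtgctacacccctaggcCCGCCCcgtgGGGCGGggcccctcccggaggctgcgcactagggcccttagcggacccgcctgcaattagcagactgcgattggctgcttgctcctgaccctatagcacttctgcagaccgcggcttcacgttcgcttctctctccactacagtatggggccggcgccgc

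Ptms, chr4:159412788-159413087, minus strand: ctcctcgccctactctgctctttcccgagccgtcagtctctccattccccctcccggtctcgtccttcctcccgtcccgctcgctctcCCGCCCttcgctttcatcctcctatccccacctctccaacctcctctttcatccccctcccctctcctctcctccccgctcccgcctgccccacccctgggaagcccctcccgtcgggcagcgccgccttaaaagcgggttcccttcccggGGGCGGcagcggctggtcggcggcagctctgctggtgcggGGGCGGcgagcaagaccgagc

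Sst, chr11:90461296-90461595, plus strand: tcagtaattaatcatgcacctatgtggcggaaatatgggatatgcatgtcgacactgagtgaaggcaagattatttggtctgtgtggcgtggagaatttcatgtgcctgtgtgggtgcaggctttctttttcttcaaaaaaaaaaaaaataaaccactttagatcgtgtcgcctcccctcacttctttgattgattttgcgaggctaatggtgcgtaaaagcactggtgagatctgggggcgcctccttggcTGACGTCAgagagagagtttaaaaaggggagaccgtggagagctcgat

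The Sst window held the cyclic AMP response element once, at bases 253 to 260 of the 300, which lies within the 50 bases after the annotated start and not upstream of it, and no GC box. The Gstk1 window held 2 GC boxes and the Ptms window 3, and neither held the cyclic AMP response element. No antioxidant response element was found in the 3 windows. Among 33469 rat promoters of the same length, 1.83% held the cyclic AMP response element, 12.1% the antioxidant response element and 33.1% the GC box. Such matches describe the letters only.

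Gstk1 encodes the kappa class glutathione transferase, an enzyme of mitochondria and peroxisomes. Its signal ran from 121 through a median of 164 to 297 in the 10 impaired rats, and from 210 through 876 to 5565 in the 8 visible rats. The impaired values were packed low and the visible values spread over a wide range, with a small overlap at the bottom. The difference was -2.19 ± 0.43 (SE; adjusted p = 0.0242), and the exact permutation p over the 18 arrays, two-sided, was 0.000114. Permutation p-values here and below are unadjusted and come from the arrays on which the probe sets were chosen, so they are no separate support. All 10 impaired rats lay below the visible mean. With the low-correlation arrays left out the difference was -1.86 ± 0.51 and no longer passed (adjusted p = 0.109). It also missed the threshold when any 1 of visible rats 31, 96 and 97 or impaired rats 8 and 51 was left out, where the adjusted p was 0.0711, 0.128, 0.0815, 0.0597 and 0.0576. A second Gstk1 probe set did not follow the first: its difference was 0.20 over all arrays and -0.46 without the low-correlation arrays, passing in neither.

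Ptms encodes parathymosin, a small acidic nuclear protein. In impaired rats its signal ran from 303 through 1748 to 2308, and in visible rats from 3102 through 3853 to 5330. Every visible rat was above every impaired rat. The difference was -1.49 ± 0.32 (SE; adjusted p = 0.0438; exact permutation p = 9.14e-05). Over the kept arrays the ranges were 1385 to 2308 and 3604 to 4946, still with no overlap, and the difference was -1.18 ± 0.30 (SE; adjusted p = 0.0833). The call was kept only when impaired rat 47, 48, 52, 56 or 87 was the one left out (adjusted p from 0.0289 to 0.0444); any other single rat left out gave 0.0567 to 0.129. The other Ptms probe set, far dimmer, lay at 0.13 and did not pass.

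The unnamed probe set rc_AI178267_g_at ran from 353 through 537 to 905 in impaired rats and from 185 through 260 to 517 in visible rats. A single visible rat lay inside the impaired range. The difference was 0.98 ± 0.21 (SE; adjusted p = 0.0438; exact permutation p = 0.000343). On the kept arrays the groups did not overlap, and the difference was 0.86 ± 0.21 (SE; adjusted p = 0.0772). With 1 rat left out at a time its adjusted p ran from 0.0117 to 0.129, and it passed without impaired rat 47, 48, 52, 56 or 87 or visible rat 33.

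**Figure D2:**
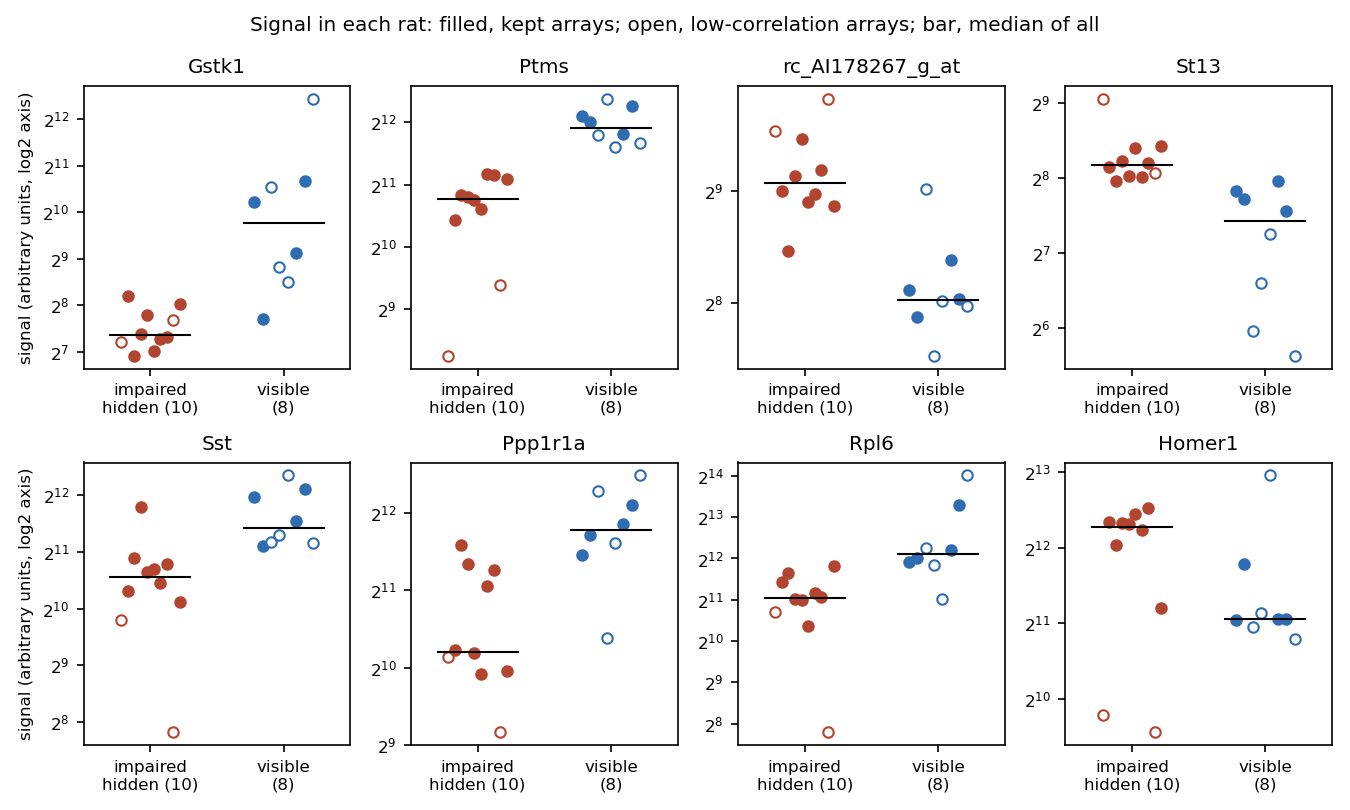
Signal of 8 probe sets in each rat on a log2 axis, impaired hidden (red, 10) and visible (blue, 8); open points are low-correlation arrays and bars are medians of all rats. Ptms and St13 do not overlap between the groups, whereas Gstk1 and rc_AI178267_g_at overlap in a few rats and the lowest Sst and Rpl6 values are from 1 open point.

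The sets of rats came from different stretches of animal numbers, which the labels do not call batches. In the 3 ranges of numbers that hold both groups (26 to 50, 51 to 75 and 76 to 100), the Gstk1 difference was -1.84, -1.53 and -3.62. That of Ptms was -1.25, -0.95 and -1.72, and that of rc_AI178267_g_at was 0.65, 1.00 and 1.29. The direction was the same in each range, with 2 to 4 rats a group, but impaired rat 8 lies in none of them. These are parts of the arrays on which the probe sets were called, so the ranges give no separate support. Without the low-correlation arrays the Gstk1 difference was -1.33, -1.83 and -2.57. That left 1 visible rat in the range 51 to 75, and 1 rat a group in 76 to 100.

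Beyond those 3 probe sets the leading genes are given as values. One probe set stood for each of 3233 genes, and the 12 genes of smallest p on each side were taken. Their differences ran from -2.19 to -0.93 on the lower side and from 0.73 to 1.40 on the higher side, with adjusted p from 0.0242 to 0.207. All 24 kept their sign without the low-correlation arrays, but an unadjusted p under 0.05 remained for 12 of the 12 lower genes and 5 of the 12 higher genes (6.90% and 7.73% of all genes). The kept arrays are among those on which the 24 genes were chosen, so these counts are not a separate test. A further 14 probe sets measured 12 of these genes; 12 of the 14 lay on the same side, but their median in the leading direction was 0.11 against 1.21 for the leading probe sets, and 1 of them reached an unadjusted p under 0.05.

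**Figure D3:**
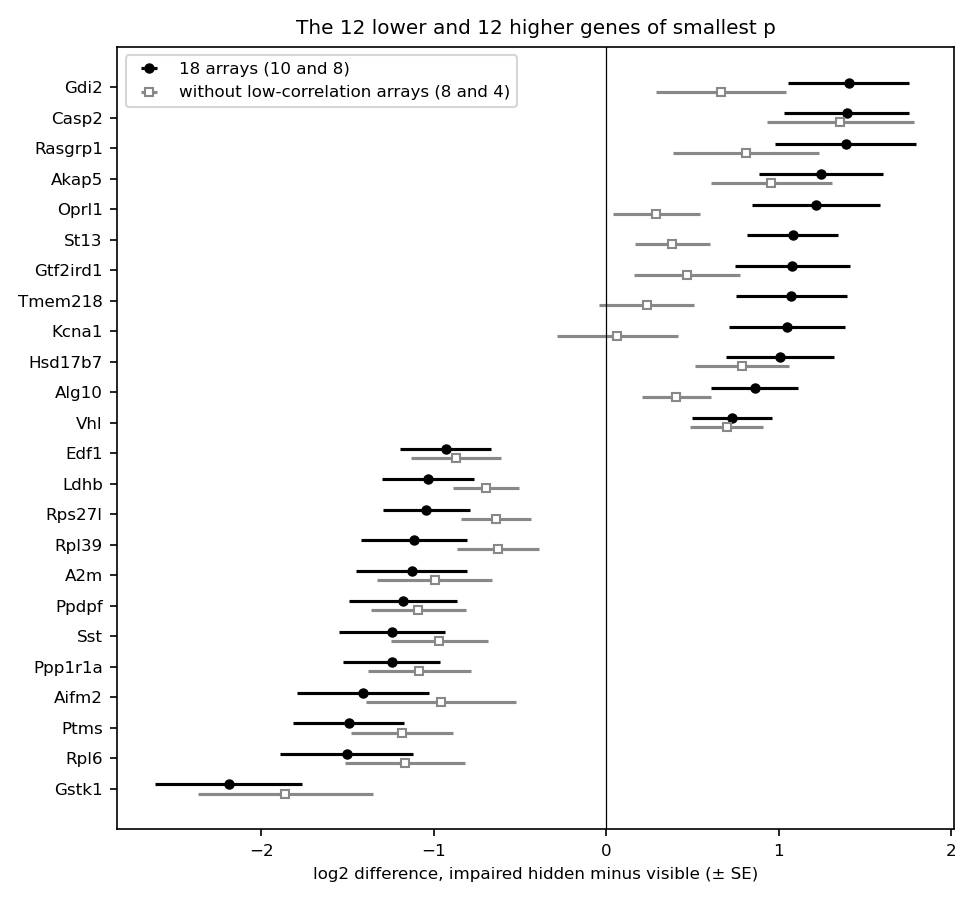
Log2 difference ± SE of the 24 leading genes over 18 arrays (filled) and without the low-correlation arrays (open). On the lower side some open points stay near the filled ones (Gstk1 -2.19 and -1.86) and others move toward 0 (Ldhb -1.03 and -0.70). Several on the higher side also move toward 0 (Kcna1 1.05 and 0.06).

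Among signalling genes on the lower side was Ppp1r1a, the inhibitor of protein phosphatase 1 that is switched on by protein kinase A. Its signal ran from 573 through 1183 to 3074 in impaired rats and from 1339 through 3532 to 5756 in visible rats. The groups overlapped in part, and the difference was -1.24 ± 0.28 (SE; adjusted p = 0.0607). Its second probe set lay lower too, by -0.74, and over the kept arrays the pair lay at -1.08 and -1.32. Ppp1r1a was the leading lower gene for which the other probe set also had an unadjusted p under 0.05.

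Sst, which encodes somatostatin and marks interneurons that contact pyramidal cell dendrites, ran from 226 through 1502 to 3553 in impaired rats and from 2197 through 2752 to 5202 in visible rats. Most impaired rats lay under the lowest visible rat. The difference was -1.24 ± 0.31 (SE; adjusted p = 0.099), and -0.97 ± 0.28 without the low-correlation arrays (adjusted p = 0.128). A second Sst probe set gave -0.08 and, without those arrays, -0.60. By animal number range the difference was -0.50, -1.08 and -2.61.

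Npy, the gene of neuropeptide Y, lay lower as well. It ran from 162 through 468 to 1371 in impaired rats and from 683 through 773 to 1218 in visible rats, a difference of -0.85 ± 0.27 that was -0.55 ± 0.28 without the low-correlation arrays (SE; adjusted p = 0.194 and 0.358). The impaired rats covered the whole visible range. Tac3, which encodes neurokinin B, lay at -0.57, and at -0.93 without the low-correlation arrays (adjusted p = 0.123). Of 17 interneuron markers measured, 0 passed the threshold, and an unadjusted p under 0.05 was reached by 0 that lay higher and 2 that lay lower, against 3.62% and 5.72% of all genes. In both analyses 6 of the 17 lay higher and 11 lower. Over all genes 1551 and 1682 of 3233 did so, and 1744 and 1489 over the kept arrays. Gad1 and Gad2, also interneuron markers, had median signals of 2032 and 168 in impaired rats and 2059 and 163 in visible rats. The median difference over the 17 was -0.23, beside -0.02 over all genes. Without the low-correlation arrays it was -0.11, beside 0.04, with 0 higher and 4 lower at an unadjusted p under 0.05 (7.73% and 6.90% of all genes), and quantile normalization of all arrays also gave -0.11. Their summed signal ran from 9888 through 16448 to 20574 in impaired rats and from 14442 through 20250 to 25518 in visible rats, and over the kept arrays from 14134 to 20574 and from 20213 to 22290.

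Markers of the pyramidal cells themselves also lay mostly lower. Of 11 CA1 and pyramidal neuron markers, 10 lay below 0 (1682 of 3233 over all genes), with a median of -0.37. Without the low-correlation arrays 8 lay below 0 (1489 of 3233 over all genes), and the median was -0.17. At an unadjusted p under 0.05, 1 lay lower over all arrays and 2 over the kept ones (5.72% and 6.90% of all genes). Of the 11 markers, 0 passed. Their summed signal had a median of 52025 in impaired rats (8856 to 58803) and 56707 in visible rats (26822 to 112610). Chn1, the Rac regulator chimaerin, had the smallest p of the list: -0.70 ± 0.31 (SE; adjusted p = 0.442), and -0.11 without the low-correlation arrays, while its other probe set lay at 0.37 and 0.21. Over the kept arrays the summed signal ran from 45380 to 58803 and from 51415 to 59492, so the lowest impaired value and both visible extremes came from low-correlation arrays. The part of marker levels in the other differences was not tested.

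Ribosomal protein genes formed the list with the lowest median. Of 39 cytosolic ribosomal protein genes, 33 lay lower (1682 of 3233 over all genes), with a median of -0.42. An unadjusted p under 0.05 was reached by 10 on the lower side (5.72% of all genes did so). Without the low-correlation arrays 27 lay lower (1489 of 3233 over all genes), the median was -0.34 and 14 were under 0.05 on that side (6.90% of all genes). Rpl6, a protein of the large subunit, ran from 222 through 2106 to 3583 in impaired rats and from 2060 through 4446 to 16536 in visible rats. The kept arrays did not overlap for it, and its difference was -1.50 ± 0.39 over all arrays and -1.16 ± 0.35 over the kept ones (SE; adjusted p = 0.118 and 0.132). The second Rpl6 probe set, however, lay at -0.10 and -0.38. Rpl39, of the large subunit, lay at -1.11 ± 0.31, and Rps27l, an S27-like protein and a target of p53, at -1.04 ± 0.25 (SE; adjusted p = 0.159 and 0.099). Those genes lay at -0.63 ± 0.24 and -0.64 ± 0.20 over the kept arrays (adjusted p = 0.199 and 0.14).

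Over the kept arrays 1 ribosomal gene, Rpl24, passed. Its signal there ran from 1482 through 3674 to 5637 in 8 impaired rats and from 5971 through 7541 to 10507 in 4 visible rats, with no overlap. The difference was -1.13 ± 0.24 (SE; adjusted p = 0.0477), against -0.75 ± 0.34 over all 18 arrays (adjusted p = 0.459). The other Rpl24 probe set lay at -0.25 without the low-correlation arrays. Edf1, a coactivator that also binds stalled ribosomes, was among the leading lower genes at -0.93 ± 0.26 and, over the kept arrays, -0.87 ± 0.26 (SE; adjusted p = 0.166 and 0.131).

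In energy metabolism the leading lower gene was Ldhb, the heart-type subunit of lactate dehydrogenase. It ran from 1073 through 4115 to 6845 in impaired rats and from 3849 through 8373 to 12039 in visible rats. The groups overlapped in part, and the difference was -1.03 ± 0.27 (SE; adjusted p = 0.118), or -0.70 ± 0.19 without the low-correlation arrays (adjusted p = 0.109). Its other probe set lay at -0.56 and -0.48. Of 53 oxidative phosphorylation subunits, 6 had an unadjusted p under 0.05 on the lower side and 0 on the higher, against 5.72% and 3.62% of all genes, with a median of -0.11. The counts without the low-correlation arrays were 10 and 1, against 6.90% and 7.73% of all genes, and the median was -0.15. The leading members were Atp5pf, a coupling factor of ATP synthase, at -1.23 ± 0.36, and the complex I subunits Ndufb1 and Ndufa6 at -1.20 ± 0.37 and -0.85 ± 0.29; over the kept arrays the 3 lay at -0.62, -1.15 and -0.77. Both probe sets of Atp5pf lay lower in both analyses, and the other Ndufa6 probe set lay at -0.48 and 0.0887. Among 22 glycolysis and glucose transport genes the median was -0.16, or -0.12 over the kept arrays, and in each analysis 2 lay lower with an unadjusted p under 0.05, a number near the share over all genes (5.72% and 6.90%).

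The remaining leading lower genes had varied roles. Aifm2, which reduces coenzyme Q and protects membranes from lipid peroxidation, lay at -1.41 ± 0.38 and, over the kept arrays, -0.96 ± 0.44 (SE; adjusted p = 0.145 and 0.294). A2m, the protease inhibitor alpha-2-macroglobulin, lay at -1.13 ± 0.32 and -0.99 ± 0.33. Its 3 other probe sets did not follow: they lay between -0.22 and -0.04 over all arrays, and over the kept arrays all lay above 0, at 0.0373, 0.21 and 0.55, the last with an unadjusted limma p of 0.0413. Ppdpf lay at -1.18 ± 0.31 and -1.09 ± 0.27, its second probe set at -0.88 and -0.47.

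St13 was the leading named gene on the higher side. It encodes Hip, a cochaperone that binds Hsp70. Its signal ran from 250 through 288 to 532 in impaired rats and from 49.6 through 171 to 248 in visible rats. Every impaired rat lay above every visible rat, by a margin of only a few units at the boundary. The difference was 1.08 ± 0.26 (SE; adjusted p = 0.099). The exact permutation p of 2.29e-05, unadjusted, is the smallest that 18 arrays allow, and the Wilcoxon test over the same arrays gave an adjusted p of 0.12. The low visible values came largely from low-correlation arrays: without them the visible range was 190 to 248, the difference 0.38 ± 0.22 (SE; adjusted p = 0.407). The other St13 probe set lay at 0.0908 over all arrays and 0.56 over the kept ones. Over all 18 arrays, St13 and Ptms were the only genes of 3233 whose groups did not overlap (0.0619%). Over the kept arrays, 89 genes did not overlap (2.75%), 45 of them higher.

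Other chaperones were mixed. Grpel1, the nucleotide exchange factor of the mitochondrial Hsp70, lay at 0.81 ± 0.28 and Cct6a, a subunit of the chaperonin that folds actin and tubulin, at 1.09 ± 0.47 (SE; adjusted p = 0.265 and 0.425), and at 0.61 and 0.83 over the kept arrays. Of 33 heat shock proteins and cochaperones, 21 lay higher, as did 1551 of all 3233 genes. An unadjusted p under 0.05 was reached by 3 of the 21 (3.62% of all genes), and the median was 0.13. On the kept arrays 25 lay higher, 4 of them under 0.05 (7.73% of all genes), and the median was 0.24, while 1744 of all 3233 genes lay higher there.

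Several leading higher genes act in neuronal signalling. Akap5, which anchors protein kinase A and calcineurin under the postsynaptic membrane, ran from 133 through 313 to 875 in impaired rats and from 42.3 through 138 to 331 in visible rats. The overlap was broad, and the difference was 1.25 ± 0.36 (SE; adjusted p = 0.173), or 0.96 ± 0.35 without the low-correlation arrays. Rasgrp1, a diacylglycerol-activated exchange factor for Ras, lay at 1.39 ± 0.41 and 0.81 ± 0.42, and Oprl1, the nociceptin receptor, at 1.22 ± 0.37. Kcna1, the potassium channel Kv1.1, lay at 1.05 ± 0.34, but at 0.06 without the low-correlation arrays, and its other probe set at 0.15 and 0.10. Oprl1 moved likewise, to 0.29.

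Casp2, the initiator caspase 2, ran from 98.9 through 296 to 790 in impaired rats and from 45.7 through 112 to 196 in visible rats. Its difference, 1.39 ± 0.36 (SE; adjusted p = 0.121), was nearly the same without the low-correlation arrays (1.36 ± 0.42), but the second Casp2 probe set lay at 0.05. Gdi2, which keeps Rab proteins in their inactive form, lay at 1.40 ± 0.35 (SE; adjusted p = 0.105) and at 0.66 without those arrays. Vhl, the substrate receptor that marks hypoxia-inducible factor for destruction, lay at 0.73 ± 0.23 and 0.70 ± 0.21. The others on the higher side were Alg10, of N-glycan assembly, at 0.86 ± 0.25, the ciliary protein gene Tmem218 at 1.07 ± 0.32, the transcription factor Gtf2ird1 at 1.08 ± 0.33 and Hsd17b7, a cholesterol-synthesis enzyme, at 1.01 ± 0.31 (SE). Over the kept arrays Alg10 lay at 0.41 ± 0.20 and Hsd17b7 at 0.79 ± 0.27, whereas Tmem218 lay at 0.23 ± 0.27 and Gtf2ird1 at 0.47 ± 0.31 (adjusted p = 0.723 and 0.492), and the second Gtf2ird1 probe set went from 0.40 to -0.13.

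Immediate early genes were examined because activity induces them. None of 15 transcription factors or 14 effectors passed, 24 hours after the last trial. The effectors had a median of 0.22, with 3 of 14 higher at an unadjusted p under 0.05 (3.62% of all genes). Without the low-correlation arrays the median was 0.23 and 2 of 14 were higher at that level (7.73% of all genes); 13 of the 14 differences lay above 0 there, as did 1744 of 3233 over all genes. Nptx2, the activity-regulated pentraxin that gathers AMPA receptors, lay at 0.69 ± 0.24 (SE; adjusted p = 0.265) and at 0.30 over the kept arrays, but its other probe set lay at -1.03 ± 0.33 and -0.73. Ptgs2, the inducible cyclooxygenase, lay at 0.95 ± 0.35 and at 0.0984 without those arrays, its other probe set at -0.47 and 0.44. Dusp5, a nuclear phosphatase of ERK, lay at 0.57 ± 0.26 and 0.20.

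Homer1, a postsynaptic scaffold with a short activity-induced form, lay higher in all 6 of its probe sets. The one of highest mean signal ran from 757 through 4942 to 5873 in impaired rats and from 1783 through 2132 to 7925 in visible rats. Most impaired rats were high and most visible rats low, with 3 low impaired rats and 1 high visible rat, and the difference was 0.33 ± 0.33 (SE; adjusted p = 0.807). Over the kept arrays it was 0.93 ± 0.26 (SE; adjusted p = 0.11). The 5 other Homer1 probe sets lay between 0.22 and 1.28, and between 0.48 and 1.74 without the low-correlation arrays, none past the threshold over all arrays. Within the animal number ranges the difference of the first was 0.98, 0.68 and -0.54.

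The inducible transcription factors depended on which arrays were used. Their median was 0.04 over all arrays and 0.48 over the kept ones, beside -0.02 and 0.04 for all genes. Egr1, at a median signal of 18298 in impaired and 16037 in visible rats, lay at -0.37 ± 0.42 and then at 0.57 ± 0.27 (SE; adjusted p = 0.83 and 0.312). The 3 other, dimmer Egr1 probe sets lay above 0 in both analyses, at 0.38, 0.0140 and 0.49 and then at 0.41, 0.0098 and 0.44. Fos lay at -0.29 ± 0.33 and then at 0.26 ± 0.23, its other probe set at -0.32 and 0.0958. Myc lay at 0.55 ± 0.38 and 0.95 ± 0.28, and Jun at 0.76 ± 0.40 and 0.52 ± 0.43, with its 2 other probe sets also above 0. Nr4a1, the orphan nuclear receptor Nur77, lay at -0.53 ± 0.29 and -0.47 ± 0.29, its other probe set at -0.58 and -0.38. Arc, whose product drives AMPA receptor removal, lay at -0.18 ± 0.34 and 0.04 ± 0.23, with medians of 2488 and 2406. Bdnf, the neurotrophin gene, lay at 0.24 ± 0.32 and -0.10 ± 0.36, and its 3 other probe sets between -0.33 and 0.19 and then between -0.22 and -0.0093.

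The list of monoamine, histamine and acetylcholine receptors showed a similar dependence. Of its 29 genes, 20 lay higher over all arrays (1551 of 3233 over all genes), with a median of 0.07. Over the kept arrays 27 lay higher (1744 of 3233 over all genes), with a median of 0.45 and 6 at an unadjusted p under 0.05 (7.73% of all genes). Chrna4, a nicotinic receptor subunit, ran from 74.6 through 149 to 577 in impaired rats and from 28.9 through 50.4 to 328 in visible rats. It lay at 1.18 ± 0.46, and at 1.47 ± 0.42 over the kept arrays, where the groups did not overlap (SE; adjusted p = 0.36 and 0.127). Htr7, a serotonin receptor coupled to cyclic AMP, lay at 0.61 ± 0.39 and 0.76 ± 0.35, and Adra2c, an adrenergic receptor, at 0.49 ± 0.28 and 0.20 ± 0.24. These probe sets are dim, and the kept impaired arrays had the higher spike-in level given above. The part of either in the differences of this list was not tested.

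Glutamate receptor genes gave no call. Gria1, an AMPA receptor subunit, ran from 205 through 6974 to 7897 in impaired rats and from 273 through 5395 to 9335 in visible rats, a difference of 0.47 ± 0.66 that was 0.29 ± 0.42 over the kept arrays (SE; adjusted p = 0.873 and 0.789). Grin1, the obligatory NMDA receptor subunit, lay at -0.34 ± 0.40 and -0.42 ± 0.35, but its other probe set lay at 0.37 in each. The metabotropic receptor gene Grm3 lay at 0.96 ± 0.40, and at 1.32 ± 0.37 over the kept arrays (adjusted p = 0.415 and 0.123). Gabra2, a GABA-A receptor subunit, lay at 0.91 ± 0.36 and 0.83 ± 0.30. None of the 7 AMPA and kainate or 7 NMDA receptor subunits reached an unadjusted p under 0.05 in either analysis. That holds for the probe set used for each gene. Over all genes 3.62% lay higher and 5.72% lower at that level, and 7.73% and 6.90% over the kept arrays. Among all 11 AMPA and kainate probe sets, 1 lay higher at that level over all arrays. Another probe set of Grin2a, an NMDA receptor subunit, lay at 0.75 over the kept arrays (unadjusted limma p = 0.0367).

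At the vesicle, Syt4, an activity-induced synaptotagmin, had both probe sets higher: 0.81 ± 0.28 and 1.01 ± 0.32 (SE; adjusted p = 0.272 and 0.194), and 0.76 and 0.74 over the kept arrays. In the scaffold list, Dlg2, also called PSD-93, lay at 0.59 ± 0.33 and 0.66 ± 0.28, and Ppp1r9b, the spine protein spinophilin, at -0.49 ± 0.27 and -0.37 ± 0.30. The other Ppp1r9b probe set went the opposite way and further, at 0.71 over all arrays and 1.07 over the kept ones (unadjusted limma p = 0.136 and 0.0205). The corticosteroid receptor genes Nr3c1 and Nr3c2 lay at -0.21 ± 0.25 and 0.35 ± 0.31, and at -0.0958 and 0.40 over the kept arrays, neither past the threshold.

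Transporters included Slc6a9, the glycine transporter GlyT1. It ran from 192 through 247 to 340 in impaired rats and from 179 through 566 to 1776 in visible rats, and over the kept arrays the visible range of 516 to 908 lay wholly above the impaired one. The difference was -1.05 ± 0.32 and, over the kept arrays, -1.40 ± 0.34 (SE; adjusted p = 0.191 and 0.0772). Slc1a2, the main glutamate transporter, lay at 0.72 ± 0.38 and the bicarbonate transporter gene Slc4a4 at 0.74 ± 0.36, and at 0.73 and 0.79 over the kept arrays. Slc1a3, the astrocyte transporter named above, had median signals of 4598 in impaired and 4539 in visible rats. Of 21 transporter genes, 11 lay higher and 10 lower, beside 1551 and 1682 of 3233 over all genes. Over the kept arrays these were 17 and 4, beside 1744 and 1489. Slc8a1, a sodium-calcium exchanger, lay at -0.88 ± 0.30 and -0.92 ± 0.34, but its 2 other probe sets at 0.12 and 0.18 and then at 0.38 and 0.73. Atp2b1, a plasma membrane calcium pump, lay at 0.80 ± 0.39 and 0.72 ± 0.27, its 2 other probe sets at -0.38 and 0.46 and then at 0.33 and 1.02.

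Glial lists gave no call. Of 25 astrocyte markers, 16 lay lower (1682 of 3233 over all genes), with a median of -0.20. At an unadjusted p under 0.05, 2 lay higher and 2 lower (3.62% and 5.72% of all genes). Over the kept arrays 12 lay lower (1489 of 3233 over all genes), and the median was 0.0219. The counts under 0.05 were again 2 and 2 there (7.73% and 6.90%). Aqp4, the water channel of astrocyte endfeet, lay at 0.80 ± 0.34 and 0.47 ± 0.32. Sparc, a secreted matrix protein, lay at -0.94 ± 0.41 and 0.0219 ± 0.31, and its 2 other probe sets lay at -0.85 and 0.0247 and then at -0.96 and 0.23. Among 16 oligodendrocyte and myelin genes, Gjb1, the gap junction protein connexin 32, ran from 159 through 207 to 257 in impaired rats and from 232 through 407 to 665 in visible rats. Only the top of the impaired range met the bottom of the visible one, the difference was -0.92 ± 0.29, or -0.71 ± 0.28 over the kept arrays (SE; adjusted p = 0.194 and 0.206), and the exact permutation p was 6.86e-05. The median of that list was -0.04. P2ry12, the microglial purinergic receptor, lay at -1.02 ± 0.30 and at -0.25 over the kept arrays, in a list of 16 with a median of -0.10. In the lipid list, Scd, the stearoyl-CoA desaturase, lay at 1.13 ± 0.39 and 1.44 ± 0.41, with no overlap over the kept arrays, while Vldlr, a receptor of reelin and lipoproteins, lay at 1.12 ± 0.38 and 0.32 ± 0.30.

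**Figure D4:**
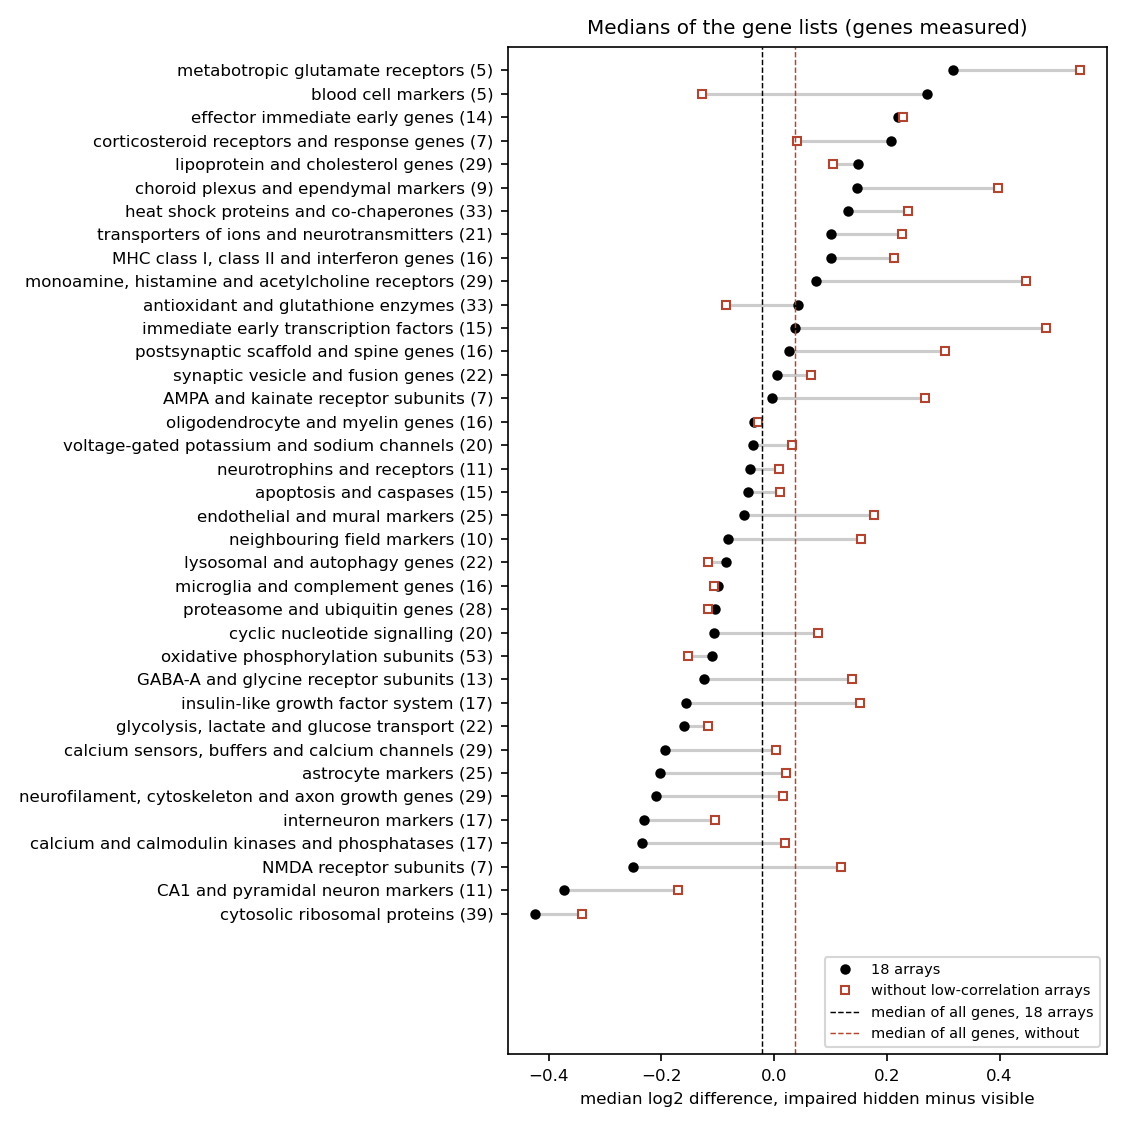
Median log2 difference of each gene list over 18 arrays (filled) and without the low-correlation arrays (open), with the number of genes measured; dashed lines are the medians of all genes (-0.02 and 0.04). Ribosomal protein genes lie lowest in both analyses (-0.42 and -0.34). Without the low-correlation arrays the immediate early transcription factors (0.04 and 0.48) and the monoamine, histamine and acetylcholine receptors (0.07 and 0.45) shift upward. The effector immediate early genes hardly move (0.22 and 0.23), and the corticosteroid receptors and response genes shift downward (0.21 and 0.04).

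With the low-correlation arrays left out of the fit to the aged groups, 3 probe sets passed the threshold (0.0572%), none of them among the 3 above: Rpl24, Nf1 and Sult2a6, each with an adjusted p of 0.0477. Nf1 and Sult2a6 lie outside the rule for naming and were chosen after their values were seen. Nf1, which encodes the Ras inactivator neurofibromin, lay at 1.35 ± 0.28 in 1 of its 4 probe sets, and the other 3 lay between 0.07 and 0.63. Sult2a6, a gene of a sulfotransferase family whose close copies its probes may share (_f_at), lay at 1.64 ± 0.34 with a median signal of 146 against 42.7, and its second probe set lay at 1.59. Over all 18 arrays the 2 genes lay at 0.67 ± 0.42 and 0.56 ± 0.43. When the 12 kept arrays were fitted without the other aged groups, 4 probe sets passed, all lower: Ptms and Slc6a9 (adjusted p = 0.0127 for each), Eef1a2, a translation elongation factor of neurons and muscle, at -1.14 ± 0.20 (adjusted p = 0.0229), and a ribosomal probe set, rc_AA893493_i_at of Rpl26, at -2.48 ± 0.41 (SE; adjusted p = 0.0159). Eef1a2 and Rpl26 were likewise chosen after their values were seen, and lay at -0.12 and -1.60 over all 18 arrays in the first fit. Egr2, another inducible transcription factor chosen in the same way, lay at 1.16 ± 0.30 over the kept arrays and 0.39 over all.

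How the impaired rats stood against the unimpaired rats, which had the same hidden-platform training, was tested in the same fit. This is also the difference between the 2 hidden-minus-visible contrasts, because the visible rats are shared. None of 5244 probe sets passed (0.0%); the lowest adjusted p was 0.312, and 677 had an unadjusted p under 0.05 (12.9%). Without the low-correlation arrays none passed either; the lowest adjusted p was 0.113, and 705 probe sets reached an unadjusted p under 0.05. Over all arrays, for Gstk1 the impaired minus unimpaired difference was -0.63 ± 0.38, for Ptms -0.77 ± 0.28 and for rc_AI178267_g_at 0.38 ± 0.18. Sst lay at -0.78 ± 0.27, Ldhb at -0.83 ± 0.24 and Rpl6 at -1.22 ± 0.34 (SE; adjusted p = 0.312 for each).

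The levels in the other aged groups were set beside these, including the 16 hidden-platform rats with the letter B. Mean log2 Gstk1 was 7.61 in impaired, 7.96 in the B rats, 8.23 in unimpaired, 8.63 in cage, 8.65 in yoked and 9.79 in visible rats, so the impaired and visible groups were the ends of the order and the cage and yoked rats, which differed by less than their spread, lay between. Ptms ran in nearly the same order, from 10.47 in impaired through 11.23, 11.32, 11.47 and 11.73 in unimpaired, cage, B and yoked to 11.96 in visible rats. For Sst the mean was 10.35 in impaired rats, 11.25 in the B rats and 11.59 in visible rats. The impaired mean was the end of the order of the 6 aged groups, on the side of the difference, for 21 of the 24 leading genes, and the visible mean was the opposite end for 18. The B rats took the impaired end for Kcna1, at 9.65 against 9.01, and for Ppdpf their mean and the visible mean were both 10.59; the genes were chosen on the difference between these groups.

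**Figure D5:**
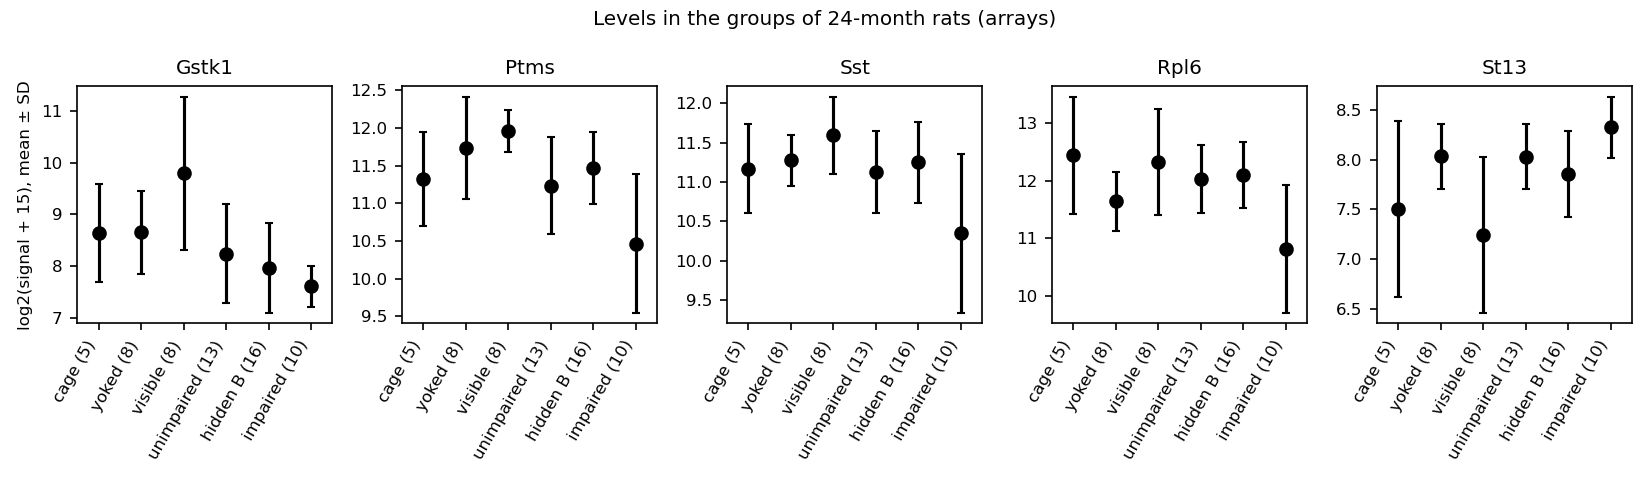
Mean log2(signal + 15) ± SD of 5 genes in the 24-month groups (number of arrays in brackets). Impaired rats lie lowest for Gstk1, Ptms, Sst and Rpl6 and highest for St13, and visible rats lie at the other end for Gstk1, Ptms, Sst and St13; the 16 B rats lie between them for these 4 genes.

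Finally, the contrast was set against hidden minus visible training in 3-month rats (6 and 4), of which 1 and 2 arrays were of low correlation. The young hidden group was not selected by performance as the impaired aged group was, so age and selection cannot be told apart in this test. No probe set passed the test of the difference between the ages (0.0%; 241 or 4.60% at an unadjusted p under 0.05, smallest adjusted p 0.464), nor any without the low-correlation arrays (375 at an unadjusted p under 0.05, smallest adjusted p 0.559). In young rats the hidden minus visible difference was 0.30 ± 0.60 for Gstk1 and 0.24 for Ptms, neither past the threshold, and the aged minus young difference was -2.49 ± 0.75 and -1.73 ± 0.54 (SE; adjusted p = 0.965 for each). Npy lay at 1.44 in young rats, against -0.85 in the impaired aged rats, and Gdi2 at -0.90 against 1.40. These had the smallest adjusted p of the age test among the leading and listed genes given here, 0.464 for each. Of the 24 leading genes, 17 had the same sign in young rats, and 1 reached an unadjusted p under 0.05 there. The matching shares over all genes were not computed, so no likeness between the ages is read from these counts.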

How the data were processed

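CA1 RNA of 79 rats was measured on Affymetrix rat arrays (8799 probe sets). The deposited values are MAS5 signals, an intensity on a linear scale, per the submitters' processing notes; no version was given, and the 2% trimmed mean of each array lies between 500.09 and 500.98, so the deposited arrays are on a like scale. No depth applies to arrays, whose number limits the precision. Here 59 control probe sets and the 40% of lowest mean signal were left out, 15 was added and log2 taken. limma 3.58.1 (R 4.3.3; lmFit, eBayes with trend) was fitted on 44 aged arrays with 5 group means, and on 63 arrays for the age test. Probe sets were named from the platform annotation, with 6994 symbols updated through RefSeq gene IDs (GRCr8); 7018 had 1 symbol, 308 several and 1426 none. Per gene, the probe set of highest mean signal was used. Named were the 12 genes of smallest p on each side, since under 5 probe sets passed, members of 37 lists from among their 3 of smallest p, and a few fixed genes. Permutation tests enumerated all 43758 divisions of 18 arrays (scipy 1.17.1), or 495 of the 12 kept. On simulated data with the main comparison's group sizes (5244 probe sets), 30% of probe sets changed by 1 on the log2 scale were recovered. Of those changed by 0.5, 2% were recovered. Without the low-correlation arrays these were 52% and 3%. False calls were 1, and 5 without those arrays. The simulated noise was normal, independent and of equal spread on every array for a probe set, so low-correlation arrays were not modelled. No arrays were identical. Whether the rats came from separate cohorts is not stated, so p-values measure the spread between these samples. The members and lists were chosen with earlier results of these data known. Alternatives covered the added constant, the filter, normalization, weights, covariates, the arrays used and a rank test.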

Additional observations from a re-analysis of the deposited data

Results flagged for a closer look

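On the log2(signal + 15) scale, 1 rat stood far from the rest of its group, by the gap to its neighbour over the whole range (Dixon's 95% value), for the genes below. Chance alone flags about 1 group in 20, and 160 were examined here, with 35 flags, 34 of them on low-correlation arrays. Impaired rat 8 was the highest of its group at 9.10 for St13, 9.73 for Htr7, 10.46 for Myc and 10.21 for Bdnf. Visible rat 68 was the highest of its group at 10.95 for Rps27l, 11.95 for A2m, 12.61 for Atp5pf, 11.25 for P2ry12 and 12.95 for Homer1. Impaired rat 83 was the lowest of its group at 7.92 for Sst, 7.89 for Rpl6, 10.09 for Ldhb, 6.72 for Ppdpf, 6.57 for Atp5pf, 9.37 for Nptx2, 6.53 for Jun, 7.90 for Nr4a1, 7.40 for Neurod2, 7.83 for Nr3c2, 10.06 for Egr1 and 7.78 for Gria1. Visible rat 33 was the lowest of its group at 5.25 for Gtf2ird1. Impaired rat 83 was the highest of its group at 10.29 for Hsd17b7 and 10.25 for Slc1a2. Visible rat 96 was the highest of its group at 10.76 for Grm3. Visible rat 97 was the lowest of its group at 5.20 for Cct6a and 6.95 for Dusp5. Impaired rat 8 was the lowest of its group at 6.82 for Slc4a4, 8.80 for Ppp1r9b and 7.59 for Fos. Visible rat 68 was the lowest of its group at 8.44 for Atp2b1 and 10.03 for Arc. Visible rat 67 was the lowest of its group at 6.06 for Jun. Its control values also set impaired rat 83 apart, with a log2 3' to 5' ratio of -0.31, and impaired rat 8, with a mean log2 spike-in signal of 16.70. What set these arrays apart was not tested.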

How the results depend on the processing

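The count of 3 probe sets past the threshold for impaired hidden minus visible became 1 with no filter on low signal, 5 with a 60% filter, 5 after quantile normalization, 1 with a robust fit and no trend, 356 with array quality weights (151 higher, 205 lower), 20 with an added 3' to 5' ratio covariate, 1 with the animal number range as a block and 11 when all 79 arrays shared 1 estimate of the spread. It was 0 when the 18 arrays were fitted alone (243 at an unadjusted p under 0.05) and 0 by the Wilcoxon test (299), and ranged from 0 to 7 when 1 rat was left out in turn: 0 without visible rat 31, 96 or 97 or impaired rat 8 or 51, 7 without impaired rat 48 and 5 without impaired rat 47. Median centring gave 2, with 265 higher and 220 lower at an unadjusted p under 0.05 against 211 and 295. Without the low-correlation arrays the count was 3, none shared with the first 3. There it became 4, all lower and 1 (Ptms) shared with the first 3, when the 12 kept arrays were fitted alone, 10 with the 3' to 5' ratio, 1 with the spike-in level, 6 with the number range, 0 by the Wilcoxon test (810 at an unadjusted p under 0.05), and 0 to 11 when 1 further rat was left out (11 without impaired rat 47). These fits without the low-correlation arrays, beyond the first, were chosen after seeing the data. The age test went from 0 to 90 with array quality weights and stayed at 0 in the other settings, as did impaired minus unimpaired in all of its settings. The cause of these differences was not tested.

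Signs turned for 7 of the 76 genes and probe sets followed. Sparc, given above among the astrocyte markers, is not one of the 7, although its sign also turned over the kept arrays. With array quality weights Arc was at 0.11, Bdnf at -0.22, Egr1 at 0.42, Fos at 0.16, Kcna1 at -0.0075 and Ptgs2 at -0.0681. Without the low-correlation arrays Arc was at 0.0367, Bdnf at -0.10, Egr1 at 0.57 and Fos at 0.26, and the same values hold for the fit and the rank test on those 12 arrays alone. In that set, quantile normalization gave 0.11 for Arc, -0.18 for Bdnf, 0.43 for Egr1, 0.29 for Fos and -0.0255 for Ptgs2. The 3' to 5' ratio gave 0.0133, -0.0877, 0.46 and 0.26 for Arc, Bdnf, Egr1 and Fos, and the number range 0.0296, -0.12, 0.57 and 0.22. The spike-in covariate gave -0.0590 for Bdnf, 0.18 for Egr1, 0.26 for Fos and -0.22 for Gria1. Without arrays on which probe sets of a gene disagreed, Arc was at 0.12, Egr1 at 0.42 and Fos at 0.38, and quantile normalization of all arrays put Egr1 at 0.0395. With 1 rat left out, Arc ranged from -0.34 (without visible rat 68) to 0.12 (without impaired rat 83), Egr1 from -0.49 to 0.0450 (without impaired rat 83) and Gria1 from -0.0212 (without visible rat 68) to 0.95. No paired analysis was possible because each animal number occurs once and the groups share no replicate number. With 10 and 8 arrays, differences of 0.5 on the log2 scale were seldom recovered in the simulated data. That simulation did not model the 6 low-correlation arrays.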

Other observations

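A few probe sets without a gene symbol lay beside the leading genes. The probe set rc_AA859994_at ran from 302 through 736 to 1344 in impaired rats and from 225 through 255 to 523 in visible rats, a difference of 1.26 ± 0.28 (SE; limma adjusted p = 0.0549) that was 1.41 ± 0.35 without the low-correlation arrays, where the groups did not overlap. The probe set rc_AI232284_i_at lay at -1.31 ± 0.33, and at -0.99 without those arrays. The probe set rc_AA800849_f_at lay at -1.61 ± 0.44 and at -0.30. Among listed genes not described above, Bad, a promoter of apoptosis, lay at -0.62 ± 0.26, and Casp1, which activates interleukin 1 beta, at 0.55 ± 0.35. Neurod2, a transcription factor of excitatory neurons, lay at -0.50 ± 0.35, and Lpl, lipoprotein lipase, at 0.48 ± 0.28. None of these passed the threshold.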
